A study of Rattus norvegicus with 8 samples.

Results

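The transcripts read most brightly in the skin of sham-treated rats were ranked from 1-colour Agilent arrays. The skin came from male Sprague-Dawley rats, an outbred laboratory strain, that received sodium citrate solution at 4 weeks of age as the sham for streptozotocin (STZ, a toxin of insulin-producing beta cells). Full-thickness skin, which holds epidermis, hair follicles, dermis and the tissue beneath it, was taken 4 weeks later, at 8 weeks of age. The series holds 4 sham and 4 STZ samples. Only sham skin is described here, and STZ signals are given only for a few probes at the close. The labels also speak of a cutaneous wound, and they do not say that the profiled sham skin was wounded.

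A probe was a member when over 50% of its spots were called well above background by the scanner software in all 4 sham files. By this rule 19693 of 24684 probes were members, or 79.8%, and single files held 20266 to 20818 such probes. Each probe's level is its log2 intensity minus the 75th percentile of its file, averaged over its spots, so that 0 stands for the brightness of the spot at that percentile. For gene symbols the brightest member probe was used, which gave 11784 member genes of 13890 named genes, or 84.8%. Symbols made of LOC or RGD and a number were not counted as named. The members were chosen by these flags and ranked by these levels, so all levels below are a description and carry no test. The order is one of probe brightness: a probe's brightness also depends on its sequence, and no transcript lengths enter it.

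The 4 sham files came from 2 arrays, although the series' design text speaks of 4 sham rats. Over 11328 spots, the deviations of spots from their probe's mean correlated at 0.979 or more between replicates 1 and 3 and between replicates 2 and 4. Between scans of different sham arrays it was at most 0.410. The scans of each array were therefore averaged, and every SD below is over n = 2 arrays. The labels do not say if the RNA on an array came from 1 animal or a pool. The 75th percentile of signal was 1138 and 1174 in replicates 1 and 3, and 1298 and 1336 in replicates 2 and 4. No sham spot was saturated.

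Skin is a layered organ whose epidermis is a sheet of keratinocytes held together by keratin filaments and desmosomes. Hair follicles grow down from it in cycles, and in the growth phase dividing matrix cells build a hair shaft of hard keratins and cysteine-rich keratin-associated proteins inside a moulding inner root sheath. The dermis below is a collagen matrix made by fibroblasts, and in rodents a sheet of striated muscle, the panniculus carnosus, lies under the dermal fat.

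Inner root sheath keratins, ribosomal proteins, fibrillar collagens, skeletal muscle proteins and beta globins led the ranking of named genes. Krt27, a type I keratin of the inner root sheath, had the brightest probe of all, with signals of 279138, 256740, 278007 and 251938 in sham replicates 1 to 4. Its level was 7.75 ± 0.23 (SD, n = 2). Krt25, its neighbour in the same keratin cluster, followed with signals of 233957, 274577, 232633 and 278474 and a level of 7.69 ± 0.04. The array of replicates 1 and 3 was the higher for Krt27 and the array of replicates 2 and 4 the higher for Krt25. Next was Rplp2, an acidic stalk protein of the large ribosomal subunit, at 7.64 ± 0.02.

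The 30 named genes with the brightest probes spanned only 7.75 down to 7.03 on the log2 scale, and 29 of those probes had a single spot. Of the 29 steps between neighbours in this order, 27 were smaller than the larger of the neighbours' SDs. Sorting by these same means makes steps small, so this is no test of whether neighbours differ, and their order is uncertain. The median SD in this set was 0.14. Ribosomal protein genes took 14 of the 30 places, among them Rplp2, Rpl38, Rps19, Rplp0, Rplp1, Rpl8, Rpl14, Rps6, Rpl19, Rps15a, Rpl37l1 and Rps4x. They spanned 7.64 to 7.03, and Rpl38, the second of them, had signals of 182101, 209493, 182553 and 214763 in replicates 1 to 4. Col3a1 and Col1a2, chains of collagen III and collagen I, stood at 7.35 ± 0.15 and 7.27 ± 0.07. Acta1, the actin of skeletal muscle, stood at 7.34 ± 0.29, with signals of 161909, 247068, 163334 and 245566, the second array being the higher. Myl1, a myosin light chain of fast muscle fibres, read 7.16 ± 0.33. Hbbl1, Hbb and Hbb-b1 stood at 7.21 ± 0.23, 7.18 ± 0.13 and 7.18 ± 0.12. The probes of the alpha globins Hba-a1 and Hba-a2 read far lower, at 1.81 ± 0.14 and 1.51 ± 0.30. Beta globin genes are near-identical copies, so which copy each probe reads is uncertain.

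The other places went to genes of several roles. Tmem50a, a membrane protein, stood at 7.45 ± 0.06. In the order of all member probes it had rank 6, after Rplp2 at rank 3. The probes between them had no symbol counted as named and are not described here. Ctsb, the lysosomal protease cathepsin B, read 7.30 ± 0.13. Perp, a desmosome-associated protein of stratified epithelia, read 7.20 ± 0.29 and Lgals7, a galectin of keratinocytes, 7.17 ± 0.16. Actg1, a cytoplasmic actin, was at 7.09 ± 0.03. The widest gap in this set was that of Myl6, a non-muscle and smooth muscle myosin light chain, at 7.39 on the array of replicates 1 and 3 and 6.73 on the other.

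The signal was spread over many probes. The 10 brightest members held 2.51% ± 0.10 (SD, n = 2) of the summed signal of all probes, members or not. The 100 brightest held 17.2% ± 0.63 and the 1000 brightest 56.7% ± 0.21. Among the 100 genes ranked highest, 48 were ribosomal proteins by symbol, 9 were keratins or keratin-associated proteins, 4 were beta globins and 2 were collagens. A further 16 belonged to none of these families and to none of the 33 gene lists used here, among them Anxa2 and Anxa1 (annexins), Gja1 (the gap junction protein connexin 43) and Gpnmb (a membrane glycoprotein of macrophages and melanocytes). Each array's own 100 brightest probes had 81 in common.

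Structural proteins of the hair follicle gave some of the brightest lists. List counts here and below are over the listed genes with a named probe, and the other listed genes could not be ranked. The inner root sheath and companion layer list had 8 of 8 measured genes as members, with a median level of 5.17, against a median of -0.21 over all named member genes. Padi3, which deiminates trichohyalin, stood at 5.46 ± 0.16 and the type II keratin Krt72 at 5.29 ± 0.28. The lowest of the list was Krt75, a companion layer keratin, at 0.60 on one array and 1.89 on the other. Of hair shaft keratins, 13 of 13 were members with a median of 4.33, led by Krt34 at 6.71 ± 0.13, Krt33a at 6.64 ± 0.02, Krt81 at 6.02 ± 0.52 and Krt33b at 5.97 ± 0.42. Krt84, known mainly from tongue papillae and nail, was the dimmest of them at -6.57.

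Keratin-associated proteins cross-link the keratin filaments of the shaft. Of 37 listed, only 7 had a named probe, and all 7 were members with a median of 5.08. Krtap7-1 stood at 6.94 ± 0.24, Krtap15-1 at 6.64 ± 0.61, Krtap16-5 at 6.60 ± 0.58 and Krtap1-5 at 5.08 ± 0.14. These genes are small and repetitive, so a probe may read more than 1 family member. Of hair matrix and cuticle genes, 13 of 14 were members with a median of 2.56. S100a3, known from hair cuticle cells, led them at 6.69 ± 0.07, before the orphan receptor Gprc5d at 5.81 ± 0.10. Shh, a signal made by matrix cells, was the one that missed membership.

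Keratin, envelope and adhesion genes of the epidermis were also read brightly. Full-thickness skin holds epidermis and follicles together, so these levels cannot be assigned to the epidermis between follicles. Of 10 epidermal keratins listed, 6 had a named probe and 5 were members, with a median of 4.09. Krt5 and Krt10 had no named probe. Krt15 and Krt14, both keratins of basal cells, stood at 6.54 ± 0.47 and 6.34 ± 1.14, and Krt1, a keratin of the layers above, at 4.09 ± 0.81. The probe for Krt2, a late differentiation keratin, missed membership. Of 27 cornified envelope and granular layer genes listed, 13 had a named probe, and all 13 were members with a median of 3.55. Csta (cystatin A) led them at 5.77 ± 0.69, before Tgm3 (a transglutaminase) at 5.36 ± 0.32. Ivl (involucrin) followed at 4.22 ± 0.16 and Cnfn (cornifelin) at 4.17 ± 0.33. Sprr3 was the exception at -5.76. Of 14 desmosome and adhesion genes listed, 7 had a named probe, and all 7 were members with a median of 3.91. Epcam and Cdh1 followed Perp at 5.70 and 5.19.

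In the dermal lists every gene with a named probe was a member, where 84.8% of all named genes were. Of 20 collagen and collagen-processing genes listed, 11 had a named probe, and their median was 3.54. Pcolce and Serpinh1, which process and chaperone procollagen, stood at 5.72 ± 0.14 and 5.70 ± 0.35. Of small proteoglycan and elastic fibre genes, 17 of 17 were members with a median of 2.85. Sparc led them at 6.62 ± 0.08, followed by Fbn1 (fibrillin) at 5.81 ± 0.48, Dcn (decorin) at 5.67 ± 0.49 and Fn1 (fibronectin) at 5.55 ± 0.14. All 10 fibroblast list genes were members with a median of 2.83, and Vim, the filament protein vimentin, stood highest at 6.02 ± 0.56.

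Skeletal muscle formed another bright list. All 24 measured muscle fibre genes were members, with a median of 5.26, and 5 of them were among the 100 brightest genes. Besides Acta1 and Myl1, the fast-fibre calcium sensor Tnnc2 stood at 7.01 ± 0.35 and the fast myosin heavy chain Myh4 at 6.30 ± 0.37. Tnni1, the inhibitory troponin of slow fibres, was the dimmest at -1.37, and the other 23 were above the 75th percentile. Among these, the slow-fibre genes Myh7 and Tnnt1 read 3.47 ± 0.16 and 2.27 ± 0.25. Smooth muscle and pericyte genes had a lower median, 2.11 over 10 of 10 members. In a bulk sample, fewer cells of a type and less RNA per cell cannot be told apart.

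Fat and lipid-making genes came next. Adipocyte genes were members in 16 of 17 cases with a median of 2.73. Cfd (the complement protease adipsin) stood at 6.13 ± 0.42 and Fabp4 (a fatty acid carrier) at 6.11 ± 0.34. Adipoq (adiponectin) read 5.38 ± 0.13 and Cidec (a lipid droplet protein) 5.29 ± 0.12. Ucp1, the uncoupling protein of brown fat, missed membership and Lep (leptin) stood at -5.46. Sebaceous and skin lipid genes were members in 14 of 14 cases with a median of 1.88, led by Dgat2 at 4.52 and Mgst1 at 4.22. Cholesterol synthesis genes were members in 15 of 15 cases with a median of 1.77, led by Fdps at 4.48.

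Genes of immune cells differed widely by list. Macrophage and dendritic cell genes were members in 19 of 19 cases with a median of 2.68, led by C1qa (a complement subunit) at 4.69 ± 0.41 and Lyz2 (lysozyme) at 5.18 and 3.76 on the arrays. Of mast cell genes, 12 of 12 were members, with a median of -0.59, the chymase Cma1 standing highest at 3.56 ± 0.62 and the carboxypeptidase Cpa3 at 2.40 ± 0.97. T and NK cell genes were members in 15 of 17 cases, but none was above the 75th percentile, and their median was -2.87. Neutrophil genes were members in 6 of 10 cases with a median of -4.13 and B and plasma cell genes in 3 of 7 with a median of -3.03. Secreted antimicrobial genes were members in 9 of 11 cases with a median of 0.75, and cytokines and chemokines in 15 of 16 with a median of -1.43. Il33, an alarmin of epithelial cells, was the brightest cytokine at 2.66 ± 0.13.

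Vessel, nerve and pigment genes sat near or below the middle of the ranking. Endothelial genes were members in 8 of 8 cases with a median of -0.54, led by the tight junction protein Cldn5 at 1.52 ± 0.30. Schwann cell and nerve genes were members in 12 of 12 cases with a median of -0.92, led by Egr2 and Pmp22 at 3.99 and 3.35. Egr2 and Pmp22 are also made outside nerve. All 6 measured melanocyte genes were members with a median of -2.42, and none was above the 75th percentile. Erythroid genes were members in 10 of 10 cases with a median of 1.66, although skin itself makes no red cells. Alas2, the first enzyme of haem synthesis in red cell precursors, read 3.68 and 4.96 on the arrays.

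Ribosomal protein and translation genes had the highest list medians. All 71 measured cytosolic ribosomal protein genes were members, with a median of 6.47, and 46 of them were among the 100 brightest genes. Their probes were not uniform: 66 were above the 75th percentile, while Rpl28, Rpl27a, Rpl36a, Rpl10 and Rpl11 lay between -1.16 and -5.31. Ribosomal protein genes have many processed pseudogenes, so the levels of near-identical copies are uncertain here. Translation and folding factors were members in 18 of 18 cases with a median of 5.58, led by Tpt1 at 7.20 ± 0.17 and Eef1a1 at 6.85 ± 0.04. Respiratory chain genes were members in 30 of 30 cases with a median of 3.96, and glycolysis genes in 12 of 12 with a median of 3.63. Of other housekeeping genes 22 of 23 were members with a median of 4.70, the probe for Tmsb4x missing membership. Cell cycle genes were members in 11 of 11 cases with a median of 0.30, led by the replication clamp Pcna at 3.51 ± 0.39.

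Membership itself was a permissive measure. Of 20 genes known from other organs, 17 were members, close to the 84.8% of all named genes. Only Nphs1 (nephrin) at 2.31 and Alb (albumin) at 1.80 were above the 75th percentile, and the median was -3.17. Just inside the threshold stood Tesl at -6.68, Vps11 at -6.69 and Cyp11b3 at -6.72. The brightest named genes just outside it were carried by 1 array. Magt1 read -6.87 and -2.83, S100a7l2 -2.21 and -7.51, and Mmp13, a collagenase, -1.30 and -8.65 on the arrays of replicates 1 and 3 and of replicates 2 and 4. Of the 4991 probes that missed membership, 3217 were above background in no sham file and 1774 in 1 to 3 files.

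Transcript classes differed in how often they were read. Of probes for RefSeq coding transcripts, 84.9% were members with a median level of -0.26, and they made 85 of the 100 brightest probes. Of RefSeq noncoding transcripts, 74.3% were members with a median of -2.48. Of probes designed on rat counterparts of mouse noncoding transcripts, 73.3% were members with a median of -3.48. Ultraconserved regions gave 47.3% and a median of -4.71. The 5 brightest noncoding probes, by accession, were MRBC052873 at 6.88 ± 0.63, XR_006879 at 6.87 ± 0.09, XR_008965 at 6.86 ± 0.25, XR_008756 at 6.85 ± 0.16 and MRNR_003557 at 6.82 ± 0.06. Of 1729 RefSeq noncoding accessions only 20 had an entry in the gene table used, so these probes carry no symbol here.

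Promoter sequences of the leading genes were read from RefSeq, build GRCr8, in windows of 250 bases before to 50 after each annotated start. Of the 11784 member genes, 9607 had such a sequence. The stretches below run from 80 bases before to 10 bases from the start, 5′ to 3′ on the gene's strand, and are shown, whatever motif they hold, for the brightest genes with a promoter of the inner root sheath, keratin-associated, muscle and ribosomal lists. Capitals mark TATAAA, the core of the TATA box, or a run of at least 8 C or T letters lying within 5 bases of the start. The genes of the inner root sheath and the shaft were Krt27 at chr10:84800122-84800211 (minus strand), Krt25 at chr10:84771188-84771277 (minus strand), Krtap7-1 at chr11:42227221-42227310 (minus strand) and Krtap15-1 at chr11:41616481-41616570 (plus strand). The muscle genes were Acta1 at chr19:68784185-68784274 (minus strand) and Myl1 at chr9:75907687-75907776 (minus strand). The ribosomal genes were Rplp2 at chr1:205975841-205975930 (plus strand), Rpl38 at chr10:100200355-100200444 (plus strand) and Rps19 at chr1:89608608-89608697 (plus strand).
Krt27: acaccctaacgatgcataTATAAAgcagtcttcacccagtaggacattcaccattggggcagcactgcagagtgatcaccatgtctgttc
Krt25: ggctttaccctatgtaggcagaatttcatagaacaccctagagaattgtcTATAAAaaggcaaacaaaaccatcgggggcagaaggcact
Krtap7-1: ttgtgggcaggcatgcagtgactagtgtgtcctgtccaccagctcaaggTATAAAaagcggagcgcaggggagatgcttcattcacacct
Krtap15-1: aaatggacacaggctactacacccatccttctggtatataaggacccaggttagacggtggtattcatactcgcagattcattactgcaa
Acta1: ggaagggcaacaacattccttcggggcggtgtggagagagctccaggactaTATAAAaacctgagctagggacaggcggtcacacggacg
Myl1: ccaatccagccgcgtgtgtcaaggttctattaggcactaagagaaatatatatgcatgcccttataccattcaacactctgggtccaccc
Rplp2: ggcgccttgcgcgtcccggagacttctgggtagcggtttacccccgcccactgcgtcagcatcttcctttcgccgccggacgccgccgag
Rpl38: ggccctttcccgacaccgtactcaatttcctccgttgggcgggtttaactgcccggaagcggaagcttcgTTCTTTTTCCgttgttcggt
Rps19: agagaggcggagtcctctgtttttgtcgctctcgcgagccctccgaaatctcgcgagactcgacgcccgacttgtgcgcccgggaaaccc

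In these stretches TATAAA began 30 bases before the annotated start in Krt25, 31 in Krtap7-1 and 29 in Acta1. In Krt27 it began 62 bases before, and the annotated start of Krt27 is an ATG, as in 2876 of all 27457 promoters of the table, where it cannot be told apart from a coding start. Krtap15-1, Myl1 and Rps19 had no marked motif. Rpl38 had a C or T run at the start, while that of Rplp2 lay farther upstream and is not marked.

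Over whole windows and both strands, TATAAA was found in 14.3% of all promoters in the table and in 9.60% of those of member genes. Among the 79 promoters of the 100 brightest genes it was found in 22, or 27.8%, against 12.7% at ranks 101 to 1000, 6.63% at ranks 1001 to 5000 and 10.7% at ranks 5001 to 11784. Inner root sheath genes held it in 6 of 8 promoters, hair shaft keratins in 7 of 10, keratin-associated proteins in 5 of 7 and muscle fibre genes in 9 of 23. Ribosomal protein genes held it in 6 of 56. Among dimmer lists, genes of other organs held it in 6 of 15, cytokines and chemokines in 5 of 11 and mast cell genes in 4 of 9. T and NK cell genes held it in 1 of 12 and neutrophil genes in 0 of 5. The motif was thus not particular to bright lists. Counts were lower where it had to lie on the gene's strand, 25 to 40 bases before the start: 11 of 79 for the 100 brightest genes, against 1.83% of member genes. By list they were 2 of 8 for inner root sheath genes, 2 of 10 for hair shaft keratins and 4 of 7 for keratin-associated proteins. They were 4 of 23 for muscle fibre genes, 1 of 56 for ribosomal protein genes and 4 of 15 for genes of other organs. The C or T run at the start was found in 9.01% of all promoters and 8.28% of those of member genes, but in 36 of 56 ribosomal protein promoters, or 64.3%. No promoter of the inner root sheath, hair shaft or keratin-associated lists held it. Muscle fibre genes held it in 6 of 23, translation and folding factors in 5 of 17 and the 100 brightest genes in 27 of 79. Genes of 1 cluster share ancestry, so their promoters are not independent of each other. A match describes letters only, and says nothing of the factor that may bind them.

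The sham arrays also differed from each other. Over members, the difference of replicates 2 and 4 minus replicates 1 and 3 had an SD of 0.81, while repeat scans of 1 array differed with an SD of 0.07 and 0.06. A difference over 2-fold, with no median removed, was found in 3274 member probes, or 16.6%. Across probes, which are not independent replicates, the levels of the arrays correlated at r = 0.97. After the median difference of named genes was set to 0, 1073 of 11784 genes, or 9.11%, were over 2-fold higher on the array of replicates 2 and 4, and 734, or 6.23%, over 2-fold lower. With 1 array on each side these counts have no replicate check, and no label tells the arrays apart.

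Epidermal keratins and hair shaft keratins lay on opposite sides of that median. Of the 5 epidermal keratins, all were lower on the array of replicates 2 and 4 and 4 were over 2-fold lower, with a median relative difference of -1.15. Krt14 read 7.15 and 5.54 on the arrays, a relative difference of -1.54, and Krt1 read 4.67 and 3.52. Hair shaft keratins were higher in 11 of 13 cases with a median of 0.52, and 2 were over 2-fold higher. Krt85, a keratin of the lower shaft, read 1.06 and 3.58, a relative difference of 2.59. Cell cycle genes were higher in 10 of 11 cases and over 2-fold higher in 8, with a median of 1.45. The mitotic kinase Bub1 read -2.31 and 1.14, and the mitotic kinase Cdk1 0.13 and 2.08.

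Muscle and blood genes were likewise higher on the array of replicates 2 and 4. Of 24 muscle fibre genes 22 were higher and 7 over 2-fold higher, with a median of 0.75. Ckm, the creatine kinase of muscle, read 4.64 and 5.88. Glycolysis genes were higher in 9 of 12 cases, with a median of 0.67. Of these 12, 5 were over 2-fold higher and 2, Eno1 and Pfkp, over 2-fold lower. Aldoa belongs to both the muscle and the glycolysis list. All 10 erythroid genes were higher, 4 of them over 2-fold, with a median of 0.39.

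Several immune lists were lower on that array. Of 19 macrophage and dendritic cell genes 16 were lower and 7 over 2-fold lower, with a median of -0.80. RT1-Ba, a class II antigen-presenting chain, read 4.67 and 2.77. Of 12 mast cell genes 10 were lower and 5 over 2-fold lower, with a median of -0.90. Antimicrobial genes had a median of -1.06, with 5 of 9 over 2-fold lower, and Slpi, a secreted protease inhibitor, read 2.36 and 0.55. Lyz2 is on both the macrophage and the antimicrobial list. Fibroblast genes were lower in 9 of 10 cases with a median of -0.70, 2 of them over 2-fold lower.

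Among the other lists, some lay near 0 and some did not. Inner root sheath genes were at -0.00, endothelial genes at 0.01 and ribosomal proteins at -0.02, and none of the 71 ribosomal protein genes differed over 2-fold. Keratin-associated proteins had a median of 0.67, with 4 of 7 higher, and cytokines and chemokines of -0.73, with 12 of 15 lower. Smooth muscle, cornified envelope, T and NK cell and desmosome genes had medians of -0.45, -0.40, -0.37 and -0.35. All of these differences are between the same 2 arrays, and the part of each list in the differences of the others was not tested.

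A few genes had far larger gaps. Igfals, the acid-labile subunit of the IGF-binding complex made mainly by liver, had signals of 14.3, 120018, 14.4 and 120780 in replicates 1 to 4, from a single spot. After it, Kcnma1, Cnih3, Exd1, Cabp4, Or4g16, Psd, Hpn, Npffr1 and Kptn had the largest relative differences upward, between 6.07 and 4.57. In the other direction Mmp11, a stromal matrix metalloproteinase, read 2.53 and -1.20, a relative difference of -3.66, and Akr1c3, Acsm4, Olr1564, Rspo3, Spetex2b, Prss35, Pcdhb2, Or8g36b and Ephx2 followed. Each of these 20 genes was read by a single spot, as were 13425 of the 19693 member probes. A difference over 2-fold, with no median removed, was found in 15.8% of single-spot members and 18.4% of those with 3 or more spots.

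Probes of 1 gene did not always read the same level. Of 270 genes with several member probes, the median range of level was 0.17, but 73 had a range over 1 and 20 over 4. Gnas, with 3 probes, had the widest range at 6.44, while its probes' differences between arrays had a range of 0.01. Over these genes the median range of the array difference was 0.14, and in 22 genes it was over 1.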

How the data were processed

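Cy3-labelled RNA was read on Agilent arrays of 1 colour, per the labels' protocols. Spot intensities were extracted with Agilent Feature Extraction 11.0.1.1 on a design of build rn4, per the file headers (11.0.0.1 per the submitters' processing notes). The deposited intensity is a background-subtracted processed signal, with no normalization between arrays recorded in the sources used here. The deposited flags are other values, 0 or 1 per spot. The 42136 noncontrol spots were taken to log2, the file's 75th percentile was subtracted, and spots of 1 probe were averaged (Python 3.11.15, pandas 2.3.3, numpy 2.4.6). Replicates are named as in the labels, and repeat scans count as 1 array. The number of arrays limits the precision. Symbols came from RefSeq, build GRCr8, through unversioned accessions, of which 14264 of 15313 coding ones matched, and 7540 member probes had no symbol. STZ files served to find repeat scans and for the closing values. Alternatives used limma 3.58.1 in R 4.3.3. The calculation was tested on simulated data.

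Named by rule were the 30 brightest genes, up to 4 leading genes of a list, the 10 largest array differences each way, 5 noncoding probes, and 3 genes on each side of the threshold. The other genes named, such as the lowest or missing members of a list and examples of array differences, and the promoters printed, were chosen after their values were seen. The members and lists were chosen with earlier results of these data known. Some genes that the rule names are not reported here.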

Additional observations from a re-analysis of the deposited data

How the results depend on the processing

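Under 13 other settings the sign of the median array difference was kept in 29 of 33 lists, and not in the inner root sheath, endothelial, neutrophil and ribosomal lists, whose medians lay near 0. Levels are relative to the scaling constant and shift with it. The number of members ran from 19133 to 21467. The 30 brightest genes shared 27 with those under normexp background correction with quantile normalization, and 23 to 30 when a replicate or an array was left out. The 100 brightest members held 18.2% of the signal on the array of replicates 2 and 4 alone, 17.1% on the other array alone, and 17.0% to 18.2% over all settings. The SD between arrays was 0.61 under normexp with quantile normalization, 0.80 under quantile normalization alone, 0.81 without outlier spots, 0.81 with every spot above background and 0.91 when 1 file sufficed for membership. It was 0.82 on first scans, 0.82 on second scans, and 0.81 to 0.82 when a replicate was left out. Normexp moved the counts of genes over 2-fold higher and lower to 523 and 482, against 1073 and 734, and over all settings they ran from 523 to 1265 and from 482 to 994. Scaling to the median moved the median difference of named genes from -0.06 to -0.33, and differences are given relative to it. Normexp used median spot signals in place of the mean signals first planned, and the comparison of scans was chosen after the data were seen. No paired analysis was possible because only the sham group is described and no groups are compared. Dim probes are limited by signal over background, and the array number limits every SD.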

Other observations

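The probes with the largest gaps between the sham arrays were also looked up in the STZ files, a set chosen after its values were seen. Of 28 member probes over 4 log2 units higher on the array of sham replicates 2 and 4, 24 were over 2-fold higher in STZ replicates 1 and 3 than in STZ replicates 2 and 4, and 0 were over 2-fold lower. Over all members those shares were 13.5% and 20.0%. These STZ differences are relative to their median over members. Of 5 probes over 4 log2 units lower on that sham array, 4 were over 2-fold lower in STZ replicates 1 and 3. The STZ signals of Igfals were 28494, 39.3, 28775 and 38.6 in replicates 1 to 4. The noncoding probe XR_006359, with 3 spots, had signals of 143.8, 205593, 146.5 and 203381 in the sham files and 198210, 60.5, 186324 and 61.9 in the STZ files. MRAK149123, also with 3 spots, had signals of 2209, 284908, 2253 and 280150 in the sham files and 261412, 1611, 248531 and 1632 in the STZ files. AY539885 ran the other way, at 32368, 296.3, 31342 and 302.5 in the sham files and 5250, 18995, 5336 and 18470 in the STZ files. Each group holds 2 arrays, so 1 of them always reads higher, and these values carry no test. The groups were not compared, and the cause of the gaps was not tested.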
